A study of Homo sapiens with 2 samples.

Results

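The proteasome subunit mRNAs are the 38 transcripts that encode the core and the regulatory caps of the proteasome, chosen by gene name among the 21262 rows of a table of RNA bound to LRPPRC. The 38 genes comprise 7 alpha subunits (PSMA1 to PSMA7) and 7 constitutive beta subunits (PSMB1 to PSMB7) of the 20S core, 3 immunosubunits (PSMB8 to PSMB10), 6 ATPases (PSMC1 to PSMC6) and 12 non-ATPase subunits (PSMD genes and ADRM1) of the 19S cap, and 3 subunits of other caps (PSME1 to PSME3). Every gene was found in the table once. The RNA came from wild-type A549 cells, an epithelial cell line from lung adenocarcinoma, whose lysates were incubated with 2 μg of anti-LRPPRC antibody, and it was sequenced as 2 libraries of this 1 condition (RIP-seq, sequencing of RNA that co-precipitates with a protein). LRPPRC belongs to the pentatricopeptide repeat proteins and is best known for maintaining mRNAs transcribed from mitochondrial DNA. The series description calls the replicates technical and the paper calls them biological, so the SD between the libraries may hold technical spread only.

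The proteasome is the protease that degrades proteins tagged with ubiquitin. Its 20S core is a barrel of alpha rings, which gate the entrance, and beta rings, in which PSMB5, PSMB6 and PSMB7 carry the catalytic threonines. The 19S cap binds ubiquitin chains, removes them, and unfolds and threads the substrate with its ring of ATPases. In cells exposed to interferon the immunosubunits PSMB8, PSMB9 and PSMB10 take the places of PSMB5, PSMB6 and PSMB7, and the PSME1 and PSME2 ring (PA28) can cap the core in place of 19S. In the assembled core each subunit is present in the same number, so the proteins are needed in equal amounts.

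The values are FPKM, fragments counted per kilobase of transcript and scaled to the mapped fragments of the library, as the authors deposited them. FPKM is a level in the precipitate per transcript length and is not set against the amount of that mRNA in the cells. Libraries of input RNA and of IgG precipitates were not analysed here. The sequencing depth of the libraries is unknown. As both libraries are of 1 condition, the levels given here are a description without a test. The comparison of subunit classes asks whether mRNAs for parts of 1 machine were recovered at like levels. As a check of the material, the epithelial keratins KRT8 and KRT18 had 337 ± 3.11 and 51.1 ± 0.755 FPKM (SD, n = 2), but the epithelial markers EPCAM and CDH1 only 0.430 and 1.33. Of 14 markers of alveolar type 2, haematopoietic, endothelial and fibroblast cells, 11 were listed in the table, at 0.00591 to 1.36 FPKM. The transcript of LRPPRC was recovered at 180 ± 5.51 FPKM (SD, n = 2).

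The catalytic beta subunits and the immunosubunits that replace them are related in sequence, and comparing their mRNAs requires that reads of a pair can be told apart. The stretches that encode the catalytic centre show how near they come to each other. Below are the 30 coding bases from the codon of the catalytic threonine onward, from the canonical GENCODE 44 transcripts on GRCh38, with capitals at the bases where a subunit and its replacement differ.
PSMB5: acAaccacCctGgccttcaagttccGCcat
PSMB8: acCaccacGctCgccttcaagttccAGcat
PSMB6: accacTatcatggcCgtgCagtttgacggg
PSMB9: accacCatcatggcAgtgGagtttgacggg
PSMB7: acGaccatcgcTggGGtggtCtATAaGgaT
PSMB10: acCaccatcgcGggCCtggtGtTCCaAgaC

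In this stretch 25 of 30 bases matched between PSMB5 and PSMB8, 27 between PSMB6 and PSMB9, and 20 between PSMB7 and PSMB10. Over the whole aligned coding sequence, identity was 66.6% for PSMB8 and PSMB5 (784 aligned bases), 66.4% for PSMB9 and PSMB6 (657 bases) and 63.3% for PSMB10 and PSMB7 (810 bases). The stretch shown lies at codon 60 of PSMB5 (minus strand of chromosome 14, across an intron between 23033666 and 23034704), codon 73 of PSMB8 (minus strand of chromosome 6, 32842991 to 32843020) and codon 35 of PSMB6 (plus strand of chromosome 17, 4796728 to 4796757). In PSMB9 it lies at codon 21 (plus strand of chromosome 6, 32856138 to 32856167), in PSMB7 at codon 44 (minus strand of chromosome 9, across an intron between 124414003 and 124414868) and in PSMB10 at codon 40 (minus strand of chromosome 16, across an intron between 67936310 and 67936424).

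The proteasome subunit mRNAs spanned a 410-fold range of FPKM in LRPPRC RIP, and the libraries were far closer to each other than the subunits were. The highest was PSMA6, an alpha subunit, at 378 ± 8.77 FPKM (SD, n = 2), and the lowest was the immunosubunit PSMB10, at 0.921 ± 0.0744 (SD, n = 2). The median of the 38 was 19.2 FPKM, against 6.81 for the background, the 10441 named genes that reached FPKM 1 in each library. That background holds 37 of the 38 genes, since PSMB10 lay under 1. The study used FPKM above 30 to list potential LRPPRC-binding RNAs, and it also reports the RIP signal over input RNA. By mean FPKM, 9 of the 38 genes (23.7%) were above 30, compared with 13.6% of background genes. Another 10 lay between 20 and 30, and 11 between 5 and 20. The remaining 8 (21.1%) were below 5 FPKM, compared with 40.7% of background genes.

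The alpha subunits were the class with the widest spread, which rests on PSMA6. Without PSMA6 the class means ran from 2.16 (PSMA5) to 29.3 FPKM (PSMA7), narrower than the constitutive beta subunits, at 2.60 to 43.9. PSMA6 had 384 FPKM in replicate 1 against 372 in replicate 2. PSMA5, which sits in the same ring, had 2.12 and 2.20. The level of PSMA6 was thus 175-fold that of PSMA5, 181-fold in replicate 1 and 169-fold in replicate 2. The other 5 alpha subunits lay between these values and nearer to each other. PSMA7 had 30.01 FPKM in replicate 1 but 28.6 in replicate 2, so that it was on either side of the threshold. PSMA3 had 25.9 and 25.0. PSMA4 had 21.5 and 21.6, PSMA1 had 15.2 and 16.2, and PSMA2 had 9.991 and 8.998. None of these neighbours overlapped between the libraries. The median of the class was 21.6 FPKM.

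PSMA6 stood apart from all other members. It was 6.10-fold above the next, PSMD2, and made up 33.4% of the summed FPKM of the 38 genes in replicate 1 and 32.8% in replicate 2. It ranked 34 by mean among all rows of the table, between GAPDH (367 FPKM) and ACTB (487 FPKM). Without it the range of the members was 67.2-fold. The gene lies on the plus strand of chromosome 14 from 35278633 to 35317493 of GRCh38, with a canonical transcript of 1023 bases in 7 exons and 17 annotated transcripts. A protein-coding readthrough gene overlaps it on the same strand. A processed pseudogene, PSMA6P1, matches 95.7% of its transcript at 97.4% identity. PSMA6P1 was not analysed here. The part of shared reads in this level was not tested.

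The constitutive beta subunits lay lower than the alpha subunits, with a class median of 10.1 FPKM. PSMB7, which carries the trypsin-like site, had 43.99 FPKM in replicate 1 and 43.87 in replicate 2. Of the 7 constitutive beta subunits it was the only 1 above 30 (14.3%), a share near the background of 13.6%. PSMB2, which has no active site, followed with 22.1 and 22.9. The other catalytic subunits were lower. PSMB5, the chymotrypsin-like subunit and the main target of proteasome inhibitors such as bortezomib, had 10.7 and 11.3, and PSMB6, the caspase-like subunit, had 9.63 and 9.95. PSMB7 was thus above PSMB5 and PSMB6 in both libraries, though the proteins sit in the same ring. The structural subunits PSMB1 and PSMB4 had 10.8 and 9.48, and 9.55 and 9.58. The range of PSMB1 took in both PSMB6 and PSMB4, whereas PSMB6 lay above PSMB4 without overlap. PSMB3, at 2.74 and 2.46, was below every other constitutive beta subunit. The processed pseudogene PSMB3P2 matches 97.4% of the PSMB3 transcript at 92.2% identity, and PSMB3P1 matches 92.1% at 90.6%. The level of PSMB3 is therefore uncertain.

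The mRNAs of the immunosubunits were recovered at low levels, and each was below the constitutive subunit it replaces in both libraries. PSMB8 had 2.52 FPKM in replicate 1 and 1.95 in replicate 2, which is 4.93-fold below PSMB5 (4.25-fold and 5.81-fold in the libraries). PSMB9 had 1.12 in both, 8.71-fold below PSMB6. PSMB10 had 0.974 and 0.869, 47.7-fold below PSMB7 (45.2-fold and 50.5-fold). The differences of log2(FPKM + 1) were -1.89 ± 0.232 for PSMB8 against PSMB5, -2.35 ± 0.0302 for PSMB9 against PSMB6 and -4.55 ± 0.0531 for PSMB10 against PSMB7 (SD, n = 2). The 3 immunosubunits lay at or below percentile 16.7 of the background, and PSMB8 had the largest coefficient of variation of all members, 18.1%. PSMB8 and PSMB9 lie beside each other on chromosome 6 on opposite strands and share 544 bases in the annotation, and PSMB9 also overlaps TAP1. The kit keeps strand, but the sources used here give no strand setting for the quantification, so reads in the shared parts may be counted for either gene.

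The activators of other caps did not share 1 level. PSME1 had 52.1 FPKM in replicate 1 and 57.2 in replicate 2, among the 4 highest members. PSME2, which forms a mixed ring with PSME1 and is likewise induced by interferon, had 2.92 and 2.86, so PSME1 was 18.9-fold above its partner (17.9-fold and 20.01-fold). The genes are neighbours on chromosome 14, 4394 bases apart. PSME1 lies on the plus strand from 24136163 to 24138967 and PSME2 on the minus strand from 24143362 to 24147570. PSME2 has a pseudogene, PSME2P1, that covers 98.4% of its transcript at 96.3% identity. PSME3, which forms a nuclear ring of its own, had 25.3 and 23.9, between the others.

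The ATPases form the ring that unfolds substrates. Of these 6, PSMC1 and PSMC4 were above FPKM 30 (33.3%, background 13.6%), and the other 4 were below 20. PSMC1 had 34.7 FPKM in replicate 1 against 37.0 in replicate 2. PSMC4 had 34.4 and 33.9. PSMC2 had 17.7 and 15.1, the second largest coefficient of variation of the members (11.4%), and this range took in PSMC3, at 15.6 and 15.3. PSMC5 followed with 12.2 and 11.6. PSMC6 was lowest at 4.16 and 4.56, 8.22-fold below PSMC1. A processed pseudogene matches 71.3% of the PSMC6 transcript at 97.9% identity. Part of the PSMC1 transcript has 7 copies in the genome, of which PSMC1P1 matches 35.6% of the transcript at 99.8% identity. The levels of both are therefore uncertain. The median of the ATPases was 15.9 FPKM.

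The non-ATPase subunits had the highest class median, 25.4 FPKM, and 4 of 12 were above FPKM 30 (33.3%, background 13.6%). PSMD2, a large scaffold of the base, had 62.4 FPKM in replicate 1 and 61.6 in replicate 2. PSMD14, the deubiquitinase that cuts ubiquitin chains off the substrate, had 59.6 and 58.4. These were the highest members after PSMA6. A processed pseudogene matches 99.6% of the PSMD2 transcript at 94.6% identity, so the level of PSMD2 is uncertain. PSMD3 had 31.9 and 30.2 and PSMD1, the other large scaffold of the base, had 30.7 and 30.2, so both were just above the threshold in both libraries. The ubiquitin receptor PSMD4 was just below it at 26.7 and 28.8. PSMD4 is matched over 94.4% of its transcript at 97.2% identity by PIPSL, a transcribed processed pseudogene, so its level is uncertain. The other ubiquitin receptor, ADRM1, had 24.3 and 24.5, below PSMD4 in both libraries.

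The lid subunits other than PSMD14 and PSMD3 had lower levels. PSMD6 had 26.4 and 25.2 FPKM in replicates 1 and 2, and PSMD7, the inactive partner of PSMD14, had 25.9 and 24.3. PSMD11 had 23.9 and 24.1, PSMD12 had 16.7 and 17.1 and PSMD8 had 16.9 and 16.7. The libraries of PSMD6 and PSMD7 overlapped, and so did those of PSMD12 and PSMD8. PSMD13, also a lid subunit, had 2.55 and 2.79, 23.2-fold below PSMD2 by mean. Of the 18 members of 19S, PSMD13 and PSMC6 were below 5 FPKM (11.1%, background 40.7%). SEM1, a small lid subunit that is not among the 38 genes, had 3.34 and 4.18.

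By median the 20S core lay below the 19S cap, but the size of this difference depended on how subunits were summarised. The 14 constitutive core subunits had a median of 13.3 FPKM and the 18 subunits of 19S one of 24.7, a log2 difference of -0.84 ± 0.0808 (SD, n = 2) on the log2(FPKM + 1) scale. With geometric means it was -0.38. Above FPKM 30 were 2 of 14 core subunits (14.3%) and 6 of 18 subunits of 19S (33.3%), compared with 13.6% of background genes. The share of the core above FPKM 30 was thus near that of the background. The core median was above the background median of 6.81, and 2 of 14 core subunits were below 5 FPKM (14.3%, background 40.7%). Within each particle the range was wider than the difference between core and 19S, 175-fold in the core and 23.2-fold in 19S. The range of the core rests on PSMA6, and the other core subunits had means of 2.16 to 43.9 FPKM. Subunits are not replicates of a particle, so no test was made.

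The spread between the libraries was small against that between subunits. The median absolute log2 ratio of the libraries was 0.06 for the 38 genes and 0.05 for the background. The SD of log2(FPKM + 1) over the 38 genes was 1.56. Over the background genes it was 1.51, so the subunits differed about as much as background genes did. None of the 38 differed by more than 1.5 times between the libraries, compared with 1.52% of background genes. The coefficient of variation was under 5% in 28 members and over 10% in 2, PSMB8 and PSMC2. Its median was 2.91% over the 38 genes, near the 3.19% over the background. In 23 members replicate 1 was the higher, compared with 56.2% of background genes. With the members in order of mean FPKM, 16 of the 37 pairs of neighbours had overlapping libraries, so their order is not set beyond the spread. The order of the 5 highest, PSMA6, PSMD2, PSMD14, PSME1 and PSMB7, was the same in both libraries.

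The level of a subunit mRNA did not follow the length of its transcript closely. Canonical transcripts of the members had 762 (PSMB3) to 4426 bases (PSMB2), with a median of 1406.5. Spearman's rho with mean FPKM across the 38 genes was 0.26 for transcript length, 0.39 for coding length, 0.14 for the 3′ UTR and -0.09 for GC content. These are across genes, which share libraries and are not independent. Among long transcripts, PSMA5 with 3815 bases had 2.16 FPKM and PSMC1 with 4390 bases had 35.9. When FPKM was multiplied by the length in kb, which approximates the share of fragments, PSMA6 (387) remained first, followed by PSMD2 (180) and PSMC1 (157). PSMB2 moved from rank 18 to rank 5 and PSMA4 from 19 to 6. PSMB10, PSMB9, PSMB3, PSME2 and PSMB8 were the 5 lowest on that scale. Lengths came from GENCODE 44 and not from the annotation the authors used, so this product is an approximation.

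Copies elsewhere in the genome limit some of these levels. The members lie on 13 chromosomes, with 7 each on chromosomes 14 and 17. Of the 38 transcripts, 12 matched another locus over at least 20% of their length in alignments of at least 90% identity, at 26 loci in all. For 4 of them, PSMA6, PSMC6, PSMD4 and PSME2, a copy reached 95% identity over 50% of the transcript. The 4 had levels from 2.89 to 378 FPKM. The median was 16.6 FPKM for the 12 members with any copy and 23.2 for the other 26. The sources used here do not say how the quantification shared reads among such loci.

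Genes that work with the proteasome were counted in 6 lists by role, whose ranges overlapped and between which no test was made. The counts are read against the background, of which 13.6% were above FPKM 30 and 40.7% below 5. In a list of 14 further subunits and assembly factors, 12 were in the table and 8 of them were below 5 FPKM (background 40.7%), with a median of 2.85. Among these was POMP, the chaperone of 20S maturation, at 2.19 and 1.82. The assembly chaperones PSMG1 to PSMG4 had 1.43 to 5.04. The 19S assembly factors PSMD5, PSMD9, PSMD10 and PAAF1 had 0.158 to 5.01, with PSMD9 lowest. The exception was PSME4 (PA200), a nuclear activator of the core, at 43.9 and 45.6, the 1 gene of this list above FPKM 30. PSMA8 and PSMB11, the subunits of testis and thymus, were not analysed here.

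Of 10 ubiquitin receptors and shuttles, 4 were above FPKM 30 (background 13.6%) and none was below 5 (background 40.7%), with a median of 23.9. UBQLN1, which carries ubiquitinated proteins to the proteasome, was the highest at 127 and 134, and RAD23B had 124 and 123. UBQLN2, a relative of UBQLN1, had 19.2 by mean. VCP, the unfolding ATPase that works ahead of the proteasome, had 60.2 and 68.7, and its adaptor NPLOC4 had 57.2 and 56.5, while UFD1, the other adaptor, was lowest at 6.54 by mean. Of 6 proteasome-bound deubiquitinases and cofactors, 4 were above FPKM 30 (background 13.6%) and 2 below 5. USP14, which trims ubiquitin chains at the 19S cap, had 62.5 and 65.2 and the ligase UBE3C had 51.6 and 54.4. The other cap-bound deubiquitinase, UCHL5, had 3.91 and 3.44, and TXNL1 was lowest at 3.25.

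Of the 6 genes for ubiquitin and its activating enzymes, 2 were above FPKM 30 (background 13.6%). UBB, which encodes a chain of ubiquitin units, had 57.2 and 54.4 FPKM. The activating enzyme UBA1 had 31.6 and 32.2. Among the 6 regulators of proteasome genes, the transcription factor NFE2L2 had 324 and 316 and was the 1 of 6 above FPKM 30, a share near the background of 13.6%. NFE2L1, which raises transcription of proteasome genes when the proteasome is inhibited, had 7.29 and 7.89, and MAFF was lowest at 1.60.

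The antigen presentation genes, many of which interferon induces as it does the immunosubunits, had a median of 4.17 FPKM. Of 9 genes, 8 were below 5 FPKM (background 40.7%). TAP1, the peptide transporter gene that overlaps PSMB9, had 3.10 and 3.08, and TAP2 was lowest at 0.652 and 0.812. The interferon-induced activators IRF1 and NLRC5 had 4.43 and 3.37 by mean and B2M, the light chain of MHC class I, had 4.41.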

How the data were processed

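RNA bound to LRPPRC in A549 cells was measured by RIP-seq in 2 libraries. The authors deposited FPKM per gene and library. According to the submitters' processing notes and the methods, adapters were trimmed (cutadapt 1.18), reads were aligned (HISAT2 2.1.0, GRCh38) and sorted (SAMtools), and genes of an Ensembl annotation were quantified for each library (StringTie 1.3.3b). Depth is unknown, so no interval or detection limit was computed, and the number of libraries limits the precision.

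Members were taken by name. Of the rows, 16802 carry a name and 4460 do not; of 32 rows that repeat a name, the one with the lower mean was dropped. Means and SDs over the libraries, medians, ranks and counts above FPKM 30 were computed from the deposited values, and logarithms used FPKM + 1. The background was named genes that reached FPKM 1 in each library. No test was made, since there is 1 condition. The members and gene lists were chosen with earlier results of these data known. The named genes are all members, the members nearest FPKM 30, the highest and lowest of each associated list and the reference genes LRPPRC, GAPDH and ACTB. Some genes that this rule names are not reported here. Other genes of the lists, the overlapping genes and the pseudogenes were named after their values were seen. Lists used older symbols for 3 genes. Transcripts, positions and overlaps are from GENCODE 44 on GRCh38, and copies were found with blastn 2.17.0 as alignments within 10000 bases of each other. Coding sequences were aligned globally with Biopython 1.88. Summary functions were tested on simulated data. Alternatives were thresholds of 20 and 50, other backgrounds, each library alone, pseudocounts of 0.1 and 0.01, geometric means, multiplication by length, TPM and members left out. Values were computed with pandas 2.3.3 and numpy 2.4.6 in Python 3.11.15, correlations with scipy 1.17.1 and plots with matplotlib 3.10.9.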

Additional observations from a re-analysis of the deposited data

How the results depend on the processing

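Of 59 alternatives to 14 results, 35 left the value within its limit and 24 moved it beyond. Only 1 of the 14 results had no alternative that moved it. The log2 differences, the only results that could change sign, kept their sign in all alternatives. The limit was 1.5 times for counts and for the ratio between libraries, and the SD over the libraries otherwise. Members above FPKM 30 were 9, but 19 at FPKM 20 and 4 at FPKM 50, because the threshold itself differs. They were 9 or 10 with either library alone, and 6 without the 12 members with a copy, an alternative added after seeing the data. The background share above FPKM 30 fell from 13.6% to 10.6% with FPKM of at least 0.1 and to 8.46% over all named genes, because low genes enter. With 1 library the median of the members was 19.3 or 19.6 FPKM and that of the beta subunits 9.95 or 10.7. Geometric means gave 21.3 FPKM for alpha, 11.5 for beta, 1.32 for immunosubunits, 23.4 for non-ATPase subunits and 15.7 for activators. Without PSMA6, left out after seeing the data, the alpha median was 18.6. The log2 difference of core and 19S was -0.38 with geometric means, -1.35 multiplied by length, -1.10 without members with a near-identical copy and -0.66 without members with any copy (added after seeing the data). The log2 differences of immunosubunits grew with smaller pseudocounts, as their construction implies: to -2.25 and -2.30 for PSMB8, -3.01 and -3.11 for PSMB9, and -5.43 and -5.56 for PSMB10 (pseudocounts 0.1 and 0.01). Multiplied by length, PSMB9 against PSMB6 was -2.08. The median absolute log2 ratio between libraries was 0.0269 for members above FPKM 30 only. No paired analysis was possible because both libraries belong to 1 condition. Without the depth, no precision can be given for low values such as PSMB9 and PSMB10.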
